A study of Mus musculus with 6 samples.

Results

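The Frizzled family comprises the seven-pass membrane receptors that bind WNT ligands. Its 10 mouse genes, Fzd1 to Fzd10, were taken from the table of 23718 genes by their symbols, and all 10 were listed. They were measured in RNA sequencing of regions cut by laser capture from the incisors of 1-month-old C57BL/6 mice. The mesenchymal stem cell (MSC) region came from 3 samples of Gli1-CreER;tdT mice and the transit amplifying cell (TAC) region, the dividing progeny of the stem cells, from 3 samples of Axin2-CreER;tdT mice. By the methods of the study, all mice received tamoxifen shortly before collection, so each group carried a Cre driver, the red tdTomato reporter and the drug, and no group was without them. The regions differed in the driver allele as well as in position, and a captured region can hold other cells beside the labelled ones. The methods give 3 mice per group and describe the colony as of mixed background, where the labels say C57BL/6. Neither source ties each library to its own animal, so the p-values measure the spread between these samples. The samples are bulk tissue, in which fewer cells expressing a gene and less RNA per cell cannot be told apart.

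A Frizzled receptor binds a WNT with its extracellular cysteine-rich domain. With the coreceptors LRP5 and LRP6 it passes the signal through Dishevelled to beta-catenin, and with other partners it acts in planar cell polarity and calcium signalling. In the continuously growing mouse incisor, WNT signalling is active in the transit amplifying region, and Axin2 is a well-known target of the beta-catenin branch. The family is commonly divided by sequence into Fzd1, Fzd2 and Fzd7, Fzd5 and Fzd8, Fzd4, Fzd9 and Fzd10, and Fzd3 and Fzd6.

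The coding sequences were read from GENCODE M21 transcripts on mm10. Within these subfamilies, 8 pairs of coding sequences had 58.7% to 77.4% identical bases over the longer sequence, with a median of 66.9%. The other 37 pairs had 43.7% to 63.8%, with a median of 53.4%. Fzd2 and Fzd7 were the closest pair at 77.4%. No stretch of 75 bases was shared by the transcripts of any members, so reads of that length without mismatches can be told apart between them. Fzd5 shared 15.7% of its stretches of 75 bases with Gm38058, an unclassified gene on the opposite strand, and Fzd6 shared a smaller part with Gm26704. Whether the counting used strand was not stated, so the Fzd5 level may include reads of its antisense partner. Gm26704 held between 0 and 40 estimated reads per library. Fzd3 also overlaps the small RNA gene Gm27263 and the pseudogene Gm9086.

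All 10 coding sequences held, once each, the codons for Lys-Thr, any 3 residues and Trp, the motif in the cytoplasmic tail through which Frizzled receptors bind Dishevelled. It is shown for the members with the highest levels (Fzd1, Fzd2 and Fzd7), for the related pair Fzd3 and Fzd6, and for Fzd9, because the results turn on them. Each stretch is 42 coding bases, 5′ to 3′, with the Lys-Thr and Trp codons in capitals.
Fzd1, chr5:4755694-4755735, minus strand: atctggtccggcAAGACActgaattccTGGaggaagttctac
Fzd2, chr11:102606361-102606402, plus strand: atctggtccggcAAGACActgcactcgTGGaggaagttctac
Fzd7, chr1:59484595-59484636, plus strand: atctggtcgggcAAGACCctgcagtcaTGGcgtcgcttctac
Fzd3, chr14:65212095-65212136, minus strand: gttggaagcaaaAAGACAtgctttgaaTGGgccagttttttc
Fzd6, chr15:39033937-39033978, plus strand: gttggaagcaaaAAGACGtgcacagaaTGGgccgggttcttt
Fzd9, chr5:135249404-135249445, minus strand: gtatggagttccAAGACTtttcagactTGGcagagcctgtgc

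The number of codons after the Trp codon set Fzd1, Fzd2 and Fzd7 and the pair Fzd3 and Fzd6 apart from the rest. It was 17 in each of Fzd1, Fzd2 and Fzd7, which end shortly after the motif. It was 159 in Fzd3 and 206 in Fzd6, which carry long tails beyond it. The remaining members had 33 (Fzd4), 50 (Fzd10), 54 (Fzd9), 55 (Fzd5) and 74 (Fzd8). The receptors ranged from 537 codons in Fzd4 to 709 in Fzd6. The coding sequence lay in a single exon in 7 members, in 2 exons in Fzd4 and in 6 exons in Fzd3 and in Fzd6.

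The deposited values behaved as read numbers scaled per library, not divided by gene length, so between genes only values divided by exon length are compared here. Dividing a value by the lowest value of its library and subtracting 1 gave estimated reads, which totalled between 20203159 and 25567244 in the libraries of replicates 1 and 2. Replicate 3 of both groups stood apart from the others. It held 59793645 estimated reads in MSC and 108156380 in TAC, a mitochondrial ribosomal RNA share of 0.112% to 0.236% against 8.28% to 9.07%, and 28.3% to 43.1% of genes without a read against 6.89% to 8.36%. Changes are therefore also given within replicates 1 and 2 and within replicate 3, which has 1 library per group. Gli1 was at 308 ± 98.9 in MSC and 230 ± 144 in TAC (SD, n = 3), and Axin2 at 39.4 ± 24.3 and 51.6 ± 15.6, and the groups overlapped for both driver genes. Mki67, which encodes the study's other TAC marker Ki67, was at 137, 130 and 41.5 in MSC and at 593, 630 and 122 in TAC. Its groups overlapped as well, because TAC replicate 3 lay below MSC replicates 1 and 2. All 8 dental mesenchyme markers were listed, with summed values of 924 to 959 in MSC and 608 to 701 in TAC. Of these, 3 were higher in every MSC library and 2 in every TAC library, and Barx1 had 0 reads in MSC replicate 3. The cut regions also held markers of other cells. Over all genes tested, 12.2% were higher in every MSC library and 12.3% in every TAC library. Smooth muscle and pericyte markers summed to 750 to 1501 in MSC and 92.9 to 111 in TAC, with 7 of 8 genes higher in every MSC library, and Cnn1 and Des had 0 reads in TAC replicate 3, as Des did in MSC replicate 3. Endothelial markers summed to 198 to 298 and 92.6 to 127, with 5 of 8 genes higher in every MSC library and none at 0 reads. Dental epithelium markers summed to 293 to 3355 in MSC and 2071 to 3065 in TAC, mostly Amelx and Ambn, and 4 of 8 (Krt5, Krt14, Cdh1 and Epcam) were higher in every TAC library. In MSC replicate 3 Cdh1, Epcam, Trp63 and Shh, 4 of the 8, had 0 reads, while Krt5 and Krt14, at 15.0 and 16.0, were above MSC replicates 1 and 2. Odontoblast markers summed to 532 to 5150 in MSC, lowest in replicate 3 where Dmp1 and Ibsp had 0 reads, and 3311 to 4648 in TAC. Macrophage markers summed to 78.4 to 193 and 43.2 to 129, Schwann cell markers to 44.2 to 58.1 and 33.1 to 34.1, and osteoclast markers to 30.9 to 62.1 and 17.2 to 24.1.

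Between 8198 and 53544 estimated reads per library fell on the Frizzled genes. Per kilobase of exon, Fzd7 (16.3 on the mean of 6 libraries), Fzd1 (15.6) and Fzd2 (13.3) held the highest levels. Fzd3 (3.36), Fzd8 (3.16), Fzd6 (2.89) and Fzd10 (2.51) followed, and Fzd4 (1.10), Fzd5 (0.761) and Fzd9 (0.513) were lowest. Fzd1, Fzd2 and Fzd7 were the first 3 in each of the 6 libraries. Among neighbours in this order, Fzd2 and Fzd3 had ranges that did not overlap, 9.13 to 16.4 against 0.288 to 6.93, and all other neighbours overlapped.

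**Figure D1:**
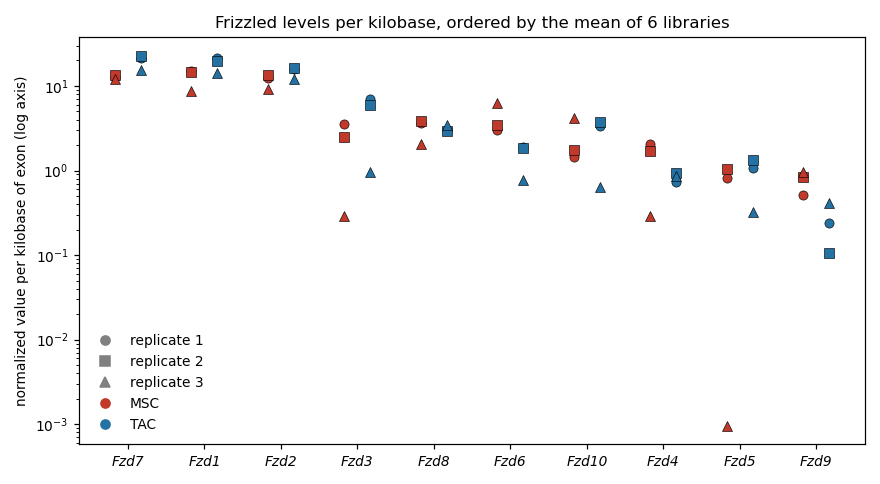
Normalized value per kilobase of exon (log axis) of each Frizzled gene in each library, MSC in red and TAC in blue, with one marker shape per replicate. Fzd7, Fzd1 and Fzd2 lie above the other 7 genes in every library, and the lowest point is Fzd5 in MSC replicate 3, which had 0 estimated reads.

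The step between these 3 receptors and the other 7 varied between libraries. The lowest of the 3 was 3.40 times the highest of the 7 in MSC replicate 1 and 3.49 times in MSC replicate 2, where Fzd8 led the 7. In MSC replicate 3 the step was 1.38 times, with Fzd6 as the highest of the 7. In TAC it was 2.31 and 2.75 times in replicates 1 and 2, with Fzd3 as the highest, and 3.54 times in replicate 3, again with Fzd8. By group mean Fzd6 took rank 4 in MSC at 4.26 ± 1.78 per kilobase (SD, n = 3) and rank 7 in TAC at 1.52 ± 0.642. Within single libraries it was at rank 6, 5 and 4 in MSC replicates 1 to 3 and at rank 7 in each TAC library. In TAC, Fzd4 at 0.850 ± 0.101 and Fzd9 at 0.251 ± 0.153 also had ranges apart. The order in the middle depended on the gene length used. Of the members, 7 had the same bounds in GENCODE M21 as in the deposited table, whereas Fzd3, Fzd6 and Fzd8 did not, and with the longest transcript as the length Fzd3 stood at rank 7 (1.12) and Fzd8 at rank 6 (1.77).

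Which receptors differed between MSC and TAC was asked next. Changes are log2 fold changes of value + 1, TAC minus MSC, fitted with limma over 15391 genes, those whose mean over the 6 libraries reached 1, and adjusted by the Benjamini-Hochberg method over all of them. No Frizzled gene passed the adjusted threshold of 0.05, against 0.422% of all genes tested. At the unadjusted threshold of 0.05, 1 member passed, Fzd6, higher in MSC, against 11.9% of all genes tested, 6.43% in that direction and 5.42% higher in TAC. The median change of the 10 members was 0.19, with 6 positive and 4 negative, beside 0.03 over all genes tested. Within replicates 1 and 2 the median was 0.32 beside -0.05 for all genes, and within replicate 3 it was 0.53 beside 0.04. All TAC libraries lay above all MSC libraries for 1 member, Fzd7 (12.3% of all genes did so), and all MSC libraries lay above all TAC libraries for 2, Fzd6 and Fzd9 (12.2% of all genes). With the replicate number as a block, 4 members passed the unadjusted threshold, Fzd1, Fzd3, Fzd6 and Fzd7, against 20.4% of all genes, and none the adjusted one, against 1.49%.

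**Figure D2:**
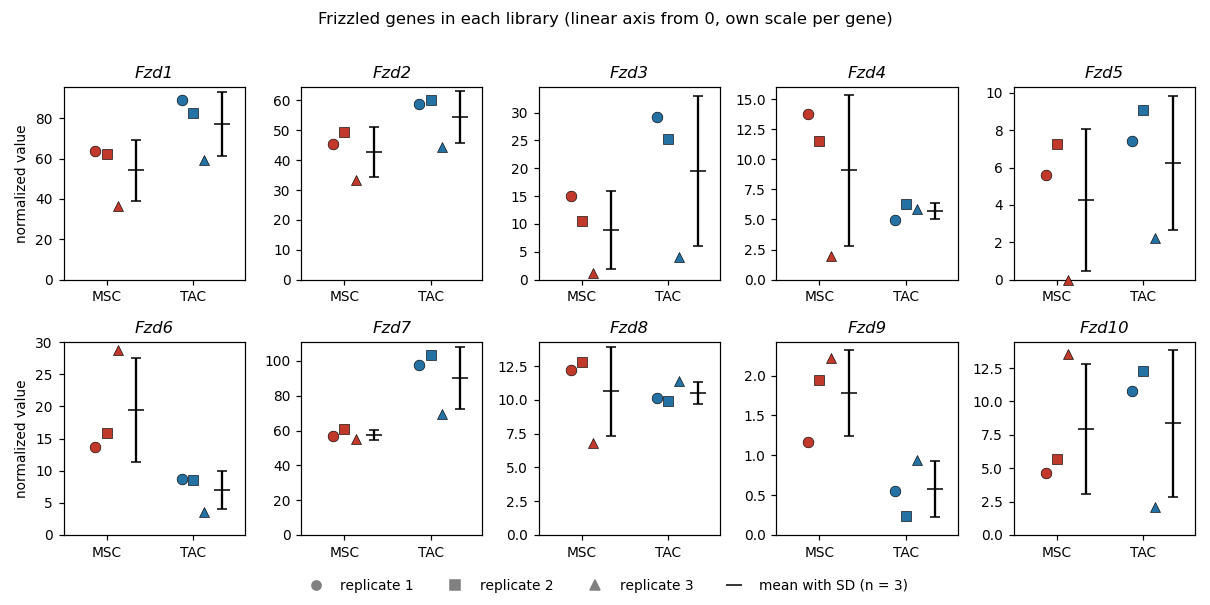
Normalized value of each Frizzled gene in each library (linear axes from 0, one scale per gene), MSC in red and TAC in blue, one marker shape per replicate, with the mean and SD of 3 libraries in black. Fzd7 is higher in every TAC library (69.5 to 103) than in any MSC library (54.9 to 60.7), Fzd6 and Fzd9 are higher in every MSC library, and the other 7 genes overlap.

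Fzd7, a receptor with known roles in stem cells of several epithelia, was at 57.1, 60.7 and 54.9 in MSC replicates 1 to 3 and at 97.8, 103 and 69.5 in TAC replicates 1 to 3. Every TAC library was above every MSC library, and the mean was 1.57 times higher in TAC (90.2 ± 18.1 against 57.5 ± 2.94, SD, n = 3). The log2 change was 0.62 ± 0.27 (SE), with an unadjusted p of 0.0516 and an adjusted p of 0.427 from limma, and it was 0.76 within replicates 1 and 2 and 0.34 within replicate 3. With the replicate block the unadjusted p of Fzd7 in limma was 0.0138 and the adjusted p 0.138.

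Fzd1, its close relative, was at 63.7, 62.1 and 36.6 in MSC and at 89.1, 82.6 and 59.1 in TAC. The groups overlapped because TAC replicate 3 lay below MSC replicates 1 and 2. Its log2 change was 0.52 ± 0.33 (SE; limma adjusted p = 0.601), 0.44 within replicates 1 and 2 and 0.68 within replicate 3, and the replicate block gave an unadjusted limma p of 0.0182 and an adjusted p of 0.154. Fzd2 was at 45.5, 49.4 and 33.4 in MSC and at 58.7, 60.1 and 44.3 in TAC, and the groups overlapped in the same way. Its log2 change of 0.34 ± 0.28 did not pass either threshold (limma adjusted p = 0.698), and it was 0.32 and 0.40 within the sets of libraries. On the deposited scaling the value was higher in TAC within each set for all 3 receptors of this subfamily. With median-ratio scaling the change of Fzd7 was 0.54 over all 6 libraries. Its change in replicate 3 minus that in replicates 1 and 2 was then -0.89. The higher Fzd7 value in TAC within replicate 3 therefore depended on the scaling.

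Fzd3 and Fzd6 are the members best known for planar cell polarity, the alignment of cells within the plane of a tissue. Fzd6 was at 13.8, 15.9 and 28.8 in MSC and at 8.74, 8.54 and 3.56 in TAC. All MSC libraries were above all TAC libraries, and the mean was 2.81 times higher in MSC (19.5 ± 8.13 against 6.94 ± 2.93, SD, n = 3). The log2 change was -1.38 ± 0.49 (SE) with a 95% interval from -2.53 to -0.23, an unadjusted p of 0.0248 and an adjusted p of 0.330 from limma. It was -0.71 within replicates 1 and 2 and -2.71 within replicate 3. The unadjusted limma p of Fzd6 passed 0.05 when MSC replicate 1, TAC replicate 1 or TAC replicate 2 was left out (0.0350, 0.0376 and 0.0395) and missed it without MSC replicate 2, MSC replicate 3 or TAC replicate 3 (0.0501, 0.0516 and 0.0525). Fzd6 was highest in MSC replicate 3, the library with the highest summed smooth muscle and pericyte markers (1501) and endothelial markers (298). That library also had the highest sums of macrophage (193), Schwann cell (58.1), osteoclast (62.1) and dental mesenchyme (959) markers. Its Gli1 value (422) was the highest too. Some markers of each of these lists were lower there than in MSC replicates 1 and 2. They were Myh11, Cspg4 and Des (smooth muscle and pericyte), Tek and Tie1 (endothelium), Adgre1 and C1qa (macrophage), and Oscar (osteoclast). Sox10, S100b and Ngfr (Schwann cell) were lower as well, as were Msx1, Msx2, Lhx6, Lhx8, Barx1 and Runx2 (dental mesenchyme). The part of the cells that these lists mark in the Fzd6 result was not tested.

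Fzd3 was at 15.0, 10.5 and 1.22 in MSC and at 29.3, 25.2 and 4.11 in TAC. Both libraries of replicate 3 lay below all other libraries, so the groups overlapped, while TAC was higher within each set. The log2 change was 1.10 ± 0.96 (SE; limma adjusted p = 0.711), with 1.05 within replicates 1 and 2 and 1.20 within replicate 3, and the replicate block gave an unadjusted limma p of 0.0144 and an adjusted p of 0.139. The values of Fzd3 and Fzd6 thus differed in opposite directions in both sets.

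Fzd4, the receptor of norrin in retinal vessels, was at 13.8, 11.5 and 1.94 in MSC and at 4.97, 6.31 and 5.85 in TAC. MSC was higher in replicates 1 and 2 and TAC was higher in replicate 3. Its log2 change of -0.29 ± 0.69 (limma adjusted p = 0.926) averaged -1.04 within replicates 1 and 2 and 1.22 within replicate 3. Fzd9, the lowest receptor on the mean of 6 libraries, had 9 to 332 estimated reads, and was at 1.17, 1.94 and 2.22 in MSC and at 0.547, 0.240 and 0.940 in TAC. All MSC libraries were above all TAC libraries, with a mean 3.09 times higher in MSC (1.78 ± 0.541 against 0.576 ± 0.351, SD, n = 3). The log2 change of -0.82 ± 0.49 passed neither threshold (limma adjusted p = 0.578), and the added 1 understates the change at such low values. It was -0.87 and -0.73 within the sets.

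Fzd10, its nearest relative with 68.9% identical coding bases, was at 4.66, 5.65 and 13.6 in MSC and at 10.8, 12.3 and 2.07 in TAC. The direction turned between the sets, from 1.03 within replicates 1 and 2 to -2.25 within replicate 3, and the log2 change over all 6 libraries was -0.07 ± 0.71 (SE; limma adjusted p = 0.986). Fzd5 was at 5.60, 7.24 and 0.00666 in MSC and at 7.44, 9.08 and 2.21 in TAC. The lowest value stands for 0 estimated reads in MSC replicate 3. Against the value of 3 reads in that library, 0.0266, Fzd5 in TAC replicate 3 was at least 82.9-fold higher, counting error only. The groups overlapped and the log2 change of 0.77 ± 0.93 did not pass either threshold (limma adjusted p = 0.812), with 0.32 within replicates 1 and 2 and 1.67 within replicate 3. In MSC replicate 3, 43.1% of all genes had no read, among them 4 of 8 dental epithelium and 2 of 5 odontoblast markers. The dental mesenchyme, macrophage, Schwann cell, osteoclast, and smooth muscle and pericyte lists each had 1 such gene there. The part of these missing reads in the Fzd5 result was not tested. Fzd8 was at 12.2, 12.8 and 6.82 in MSC and at 10.1, 9.90 and 11.4 in TAC. Its log2 change of 0.03 ± 0.40 had a 95% interval from -0.92 to 0.97 (limma adjusted p = 0.991), with -0.30 within replicates 1 and 2 and 0.67 within replicate 3.

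**Figure D3:**
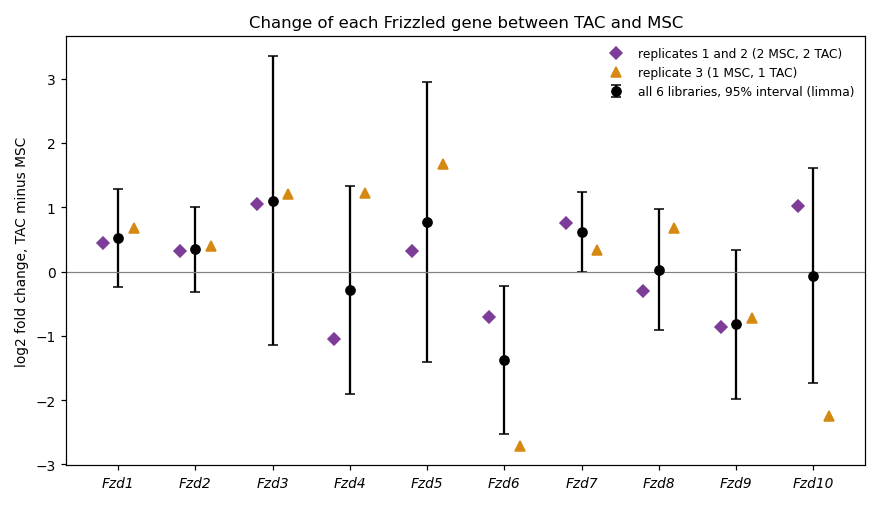
Log2 fold change, TAC minus MSC, of each Frizzled gene: black points are the limma estimate from all 6 libraries with its 95% interval, purple diamonds the mean change within replicates 1 and 2, and orange triangles the change within replicate 3. The Fzd6 interval, -2.53 to -0.23, is the one that does not include 0, and the markers of Fzd4, Fzd8 and Fzd10 lie on opposite sides of 0.

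Whether the change of a receptor depended on the set of libraries was tested with the interaction term in limma. Fzd4, Fzd5, Fzd6, Fzd7, Fzd8 and Fzd10 passed the adjusted threshold, 6 of 10 members against 57.2% of all genes tested, a share close to the background. Replicate 3 has 1 library per group, so the term rests on the small spread within replicates 1 and 2. The direction was opposite in the 2 sets for 3 members, Fzd4, Fzd8 and Fzd10, against 38.8% of all genes. With the set as an additive term, 3 members passed the adjusted threshold (Fzd1, Fzd3 and Fzd7, all higher in TAC), against 11.8% of all genes. In replicates 1 and 2 alone, 8 members passed it, 5 higher in TAC and 3 higher in MSC, against 44.2% of all genes. The members that did not pass there were Fzd5 and Fzd8. Replicates 1 and 2 were close to each other (Pearson r = 0.980 in MSC and 0.988 in TAC), so that count also rests on a small spread.

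The summed Frizzled value per kilobase was 55.2, 56.8 and 44.0 in MSC and 76.1, 75.8 and 48.9 in TAC, so the groups overlapped. The part of it held by each subfamily does not depend on library scaling. The Fzd1, Fzd2 and Fzd7 subfamily held 72.8%, 73.3% and 68.1% in MSC and 77.3%, 77.7% and 84.9% in TAC. It was higher in every TAC library, by 8.56 percentage points on the mean (80.0% ± 4.25 against 71.4% ± 2.90, SD, n = 3), and by 4.44 points within replicates 1 and 2 and 16.8 within replicate 3. The exact two-sided permutation test gave p = 0.1, the smallest that 3 against 3 samples allow, and 0.2 after adjustment over the 4 shares, so no share could pass 0.05.

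The Fzd4, Fzd9 and Fzd10 subfamily held 7.24%, 7.57% and 12.3% in MSC and 5.64%, 6.35% and 3.92% in TAC. It was lower in every TAC library, by 3.74 points on the mean (exact permutation p = 0.1, adjusted p = 0.2). The difference was -1.40 points within replicates 1 and 2 and -8.42 within replicate 3. Its summed value per kilobase was 3.99, 4.30 and 5.43 in MSC and 4.29, 4.81 and 1.92 in TAC, so in replicates 1 and 2 the lower share in TAC stood beside a summed value that was not lower, while that of the Fzd1, Fzd2 and Fzd7 subfamily was 40.2 and 41.7 in MSC and 58.8 and 58.9 in TAC. The Fzd3 and Fzd6 pair held 11.9%, 10.5% and 15.0% in MSC and 11.6%, 10.3% and 3.58% in TAC, a mean difference of -3.94 points (exact permutation p = 0.2, adjusted p = 0.267) that was -0.21 within replicates 1 and 2 and -11.4 within replicate 3. Within that pair the shares differed in opposite directions. Fzd6 alone held 5.45%, 6.12% and 14.3% in MSC and 2.51%, 2.46% and 1.59% in TAC, and Fzd3 held 6.42%, 4.38% and 0.655% in MSC and 9.10%, 7.88% and 1.99% in TAC. The Fzd5 and Fzd8 pair held 4.63% to 8.59% in MSC and 5.40% to 7.64% in TAC and overlapped (exact permutation p = 0.7, adjusted p = 0.7), with a difference of -2.82 points within replicates 1 and 2 and 3.01 within replicate 3.

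**Figure D4:**
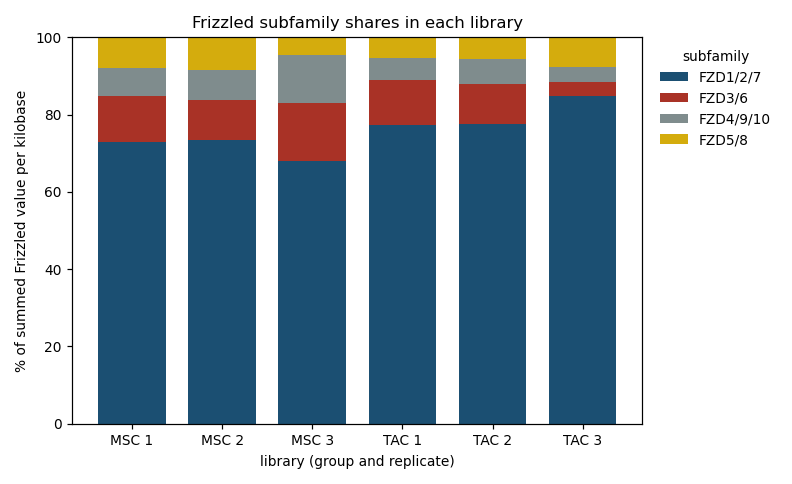
Share of the summed Frizzled value per kilobase (%, stacked bars from 0 to 100) held by each sequence subfamily in each library. The Fzd1, Fzd2 and Fzd7 subfamily holds 68.1% to 73.3% in MSC and 77.3% to 84.9% in TAC, and the Fzd3 and Fzd6 pair is smallest in TAC replicate 3 at 3.58%.

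The genes that act with Frizzled receptors were read from 10 lists of 93 genes, of which 85 were listed and 74 tested. Past the adjusted threshold were 2 of them, both higher in MSC, and 13 passed the unadjusted one, 7 higher in TAC and 6 higher in MSC. Over all genes tested these shares were 0.422% and 11.9%. With the replicate block the counts were 2 adjusted and 23 unadjusted, against 1.49% and 20.4% of all genes. Sfrp2, a secreted protein with a Frizzled-like cysteine-rich domain that binds WNTs outside the cell, was at 703, 691 and 521 in MSC and at 39.3, 38.1 and 19.6 in TAC. Its mean was 19.8 times higher in MSC, with a log2 change of -4.31 ± 0.35 (SE; limma adjusted p = 0.00876), -4.14 within replicates 1 and 2 and -4.67 within replicate 3. Shisa2, whose family retains Frizzled receptors in the endoplasmic reticulum, was at 264, 269 and 231 in MSC and at 54.6, 55.2 and 54.0 in TAC, 4.67 times higher in MSC, with a log2 change of -2.20 ± 0.24 (SE; limma adjusted p = 0.0288), -2.26 and -2.08 within the sets. When any library of replicates 1 or 2 was left out, 0 genes of the whole table passed the adjusted threshold of limma (1028 to 1367 unadjusted). The log2 changes were then -4.48 to -4.24 for Sfrp2 (adjusted p of 0.0629 to 0.0770) and -2.21 to -2.16 for Shisa2 (0.186 to 0.222).

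No other gene of these lists passed the adjusted threshold, and the unadjusted counts that follow stand beside 5.42% of all genes higher in TAC and 6.43% higher in MSC. In the list of receptor turnover and R-spondins, 1 of 7 tested genes was higher in TAC and 2 higher in MSC at the unadjusted threshold. Its examples were Lgr6 (log2 change 1.35, limma adjusted p = 0.170, 1.74 and 0.57 within the sets) and Lgr4, with a mean 2.05 times higher in MSC (limma adjusted p = 0.195, log2 changes of -0.78 and -1.45 within the sets), both receptors for R-spondins, which keep Frizzleds at the surface. Of 9 tested WNT ligands, 2 passed unadjusted, both higher in TAC, with Wnt10a at 1.18 (limma adjusted p = 0.254, 1.46 and 0.62 within the sets). Of the 2 secretion genes, Wls, which carries WNTs to the surface, had a change of 0.97 (limma adjusted p = 0.282, 0.62 and 1.67 within the sets). Among 7 tested secreted antagonists other than the decoys, 2 were higher in TAC and 1 in MSC unadjusted. Dkk1, which blocks LRP coreceptors, had a change of 2.96 (limma adjusted p = 0.119, 2.20 and 4.47 within the sets) with 0 reads in MSC replicate 3, and Dkk3 a change of -1.65 (adjusted p = 0.104, -1.43 and -2.10). Of 18 Dishevelled and canonical transducers, 1 passed unadjusted in each direction, Ctnnb1, which encodes beta-catenin, at 0.93 (limma adjusted p = 0.346, 1.18 and 0.44 within the sets) and its nuclear partner Pygo1 at -0.77 (adjusted p = 0.296, -0.62 and -1.08). None of the 6 LRP and tyrosine kinase coreceptors, 4 norrin and WNT7 coreceptor genes and 11 planar polarity genes tested passed either threshold in the fit without the block. With the block 1, 0 and 4 of them, in that order, passed the unadjusted threshold, against 20.4% of all genes, and none the adjusted one. Beside the Shisa2 call no other gene of the 6 tested in the maturation list, and beside the Sfrp2 call none of the 4 decoys tested, passed either threshold.

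**Figure D5:**
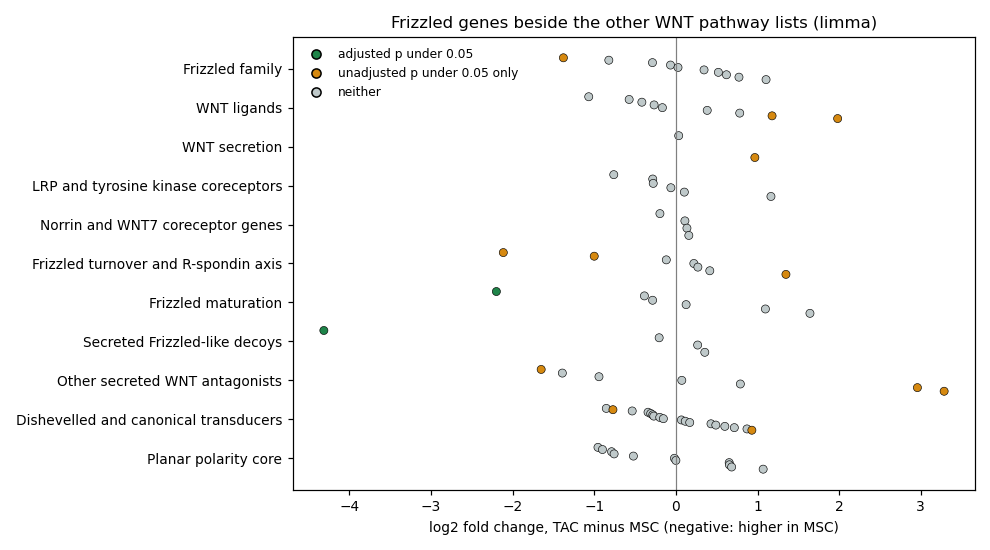
Log2 fold change, TAC minus MSC, of each tested gene (points, spread vertically within a list) of the Frizzled family and 10 other WNT pathway lists, coloured by limma call. Green points, past the adjusted threshold, are Sfrp2 (-4.31) and Shisa2 (-2.20), and in the Frizzled row Fzd6 (-1.38) is the one orange point, past the unadjusted threshold.

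The genes whose values followed a receptor most closely over the 6 libraries were listed as a description, among 7837 genes with a mean of at least 10. The points of such a correlation share the split between replicate 3 and the other libraries. Fzd6 was followed most closely by Vim (Pearson r = 0.999), Aatk (0.998) and St8sia6 (0.996), and Fzd7 by Gas2l3 (0.998), Frmd6 (0.998) and Rpl3 (0.996). Fzd1 was followed by Fubp3 (0.997), Hnrnpa0 (0.996) and Fbn2 (0.996), Fzd2 by Ssr1, Larp4b and Olfml1, Fzd3 by Hnrnpul2, Hist2h2aa2 and Dpy19l3, and Fzd8 by Ets1, Pik3c2b and Tesk1. Between 65 and 302 genes exceeded r = 0.95 with each of these receptors, so the listed names are a few of many.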

How the data were processed

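RNA was sequenced from 3 MSC and 3 TAC laser-captured samples, grouped by the genotype in the labels. Per the labels the authors used CASAVA 1.8.2, TopHat2 2.0.8 and Partek with mm10. The methods of the study name RPKM, but the deposited values did not behave so: they were a signal with 1 read added and each library scaled to a like upper quartile, and a read had the same weight whatever the length of its gene. The counting tool and strand use were not given in the sources used here. Of the low values (0.5 to 50 reads) 62.5% to 72.6% per library were whole within 0.02, so no count model was the main test. Every listed gene reached 10 reads in some library.

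Genes with a mean of at least 1 were fitted as log2(value + 1) with limma 3.58.1 in R 4.3.3 (variance trend, TAC minus MSC, two-sided). Shares were tested by exact permutation (scipy 1.17.1). Exon lengths, clipped to the deposited bounds, and sequences came from GENCODE M21 (Biopython 1.88, Python 3.11.15). Fits were tested on simulated counts. These gave replicate 3 its depth but not its excess of genes without a read, so they do not show how the fits behave with that split. The members, lists and tests were chosen with earlier results of these data known. All members were named. From each other list the gene with the smallest unadjusted p under 0.05 in each direction was named, and for members with a mean of at least 10 the 3 genes with the highest r.

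Same-numbered samples deviated together from their group means (r = 0.477, 0.465 and 0.517 across genes), so the numbers in the labels were taken as pairs and fitted as a block. MSC 1 with TAC 2 gave 0.462 and MSC 2 with TAC 1 gave 0.480, so replicates 1 and 2 were not told apart. Alternatives changed the pseudocount, filter, scaling, variance model, samples, library set and gene length, or used voom on estimated reads. A marker gene of the dental epithelium list is not reported here.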

Additional observations from a re-analysis of the deposited data

Results flagged for a closer look

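For 6 Frizzled genes the TAC minus MSC change differed between the sets of libraries, by limma's interaction term with adjustment over all genes, against 57.2% of all genes tested, so the count is close to the background. Replicate 3 has 1 library per group, so each p rests on the spread within replicates 1 and 2 and assumes that replicate 3 varies alike. The change in replicate 3 minus that in replicates 1 and 2, on the log2 scale, was 2.26 for Fzd4 (limma adjusted p = 0.000999), 1.35 for Fzd5 (0.0206), -2.00 for Fzd6 (0.000442), -0.43 for Fzd7 (0.0140), 0.97 for Fzd8 (0.0137) and -3.27 for Fzd10 (0.000126). On the deposited scaling both sets had the same sign for Fzd6 and Fzd7, and opposite signs for Fzd4, Fzd8 and Fzd10. With median-ratio scaling the Fzd7 difference was -0.89 beside a change of 0.54 over all 6 libraries. Its sets then no longer shared a sign. The Fzd5 values were higher in TAC in both sets, with 0 reads in MSC replicate 3. The difference was past the threshold for Fzd4, Fzd6 and Fzd10 under each alternative run. It missed it for Fzd7 with quantile normalization (adjusted p = 0.140) or without TAC replicate 2 (0.0545), for Fzd5 with quantile normalization (0.0999) or without TAC replicate 1 (0.0751), and for Fzd8 with median-ratio scaling (0.0974) or quantile normalization (0.0585). Fzd2 passed it with median-ratio scaling (0.0383) and Fzd1 with quantile normalization (0.0119). Depth, mitochondrial RNA and marker genes moved with the same split, and their part in these differences was not tested.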

How the results depend on the processing

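Fzd1, Fzd2, Fzd3, Fzd6, Fzd7 and Fzd9 kept their direction under every alternative run, with log2 changes of 0.27 to 0.70, 0.18 to 0.48, 0.23 to 2.27, -2.17 to -0.71, 0.51 to 0.79 and -1.53 to -0.66 in that order. Without MSC replicate 3 the change was 0.27 for Fzd1, 0.18 for Fzd2 and 0.23 for Fzd3, and voom gave 2.27 for Fzd3 and -2.17 for Fzd6, while Fzd3 was at 1.93 without TAC replicate 3. In contrast, Fzd4, Fzd5, Fzd8 and Fzd10 did not keep it. The cause was not tested. The log2 change of Fzd8 became -0.037 with median-ratio scaling, -0.051 with quantile normalization, -0.30 in replicates 1 and 2 only, and -0.24 and -0.032 without MSC or TAC replicate 3, with a range of -0.24 to 0.17 over the libraries left out. That of Fzd10 became 0.13 with quantile normalization, 1.03 in replicates 1 and 2 only, and 0.35 and 0.61 without MSC or TAC replicate 3 (range -0.45 to 0.61). That of Fzd4 became 0.83 with voom, and 0.14 and 0.023 without MSC replicate 1 or 2 (range -1.02 to 0.14). That of Fzd5 became -0.18 without MSC replicate 3 (range -0.18 to 1.33). Voom gave 5.24 for Fzd5, which has 0 reads in that library, and -1.63 for Fzd10. The Frizzled count past the unadjusted threshold, 1, became 2 (Fzd6 and Fzd7) with a pseudocount of 0.5, a minimum mean of 5 (Fzd9 then not tested) or quantile normalization (11.5%, 14.2% and 13.3% of all genes), 4 with the replicate block (20.4% of all genes), 6 with the library set as a term (29.6%) and 8 in replicates 1 and 2 only (51.9%). It ranged from 0 to 1 with each library left out (6.68% to 20.2% of all genes), the member being Fzd4 without MSC replicate 3 and Fzd7 without TAC replicate 3. The adjusted Frizzled count became 3 with the set term (11.8% of all genes) and 8 in replicates 1 and 2 only (44.2%). The adjusted count of the other WNT genes, 2, became 4 with quantile normalization (0.611% of all genes), 1 without the variance trend (0.188%), 14 of 74 with the set term (11.8% of all genes) and 46 (44.2%) in replicates 1 and 2 only, and ranged from 0 to 4 with a library left out (0% to 1.90%). Their unadjusted count, 13, became 23 with the block, 28 with the set term, 49 in replicates 1 and 2 only and 20 with voom (20.4%, 29.6%, 51.9% and 23.2% of all genes), and ranged from 9 to 21 with a library left out. Shisa2 was the adjusted call lost without the variance trend (adjusted p = 0.0733). Dkk1 was among the calls gained with quantile normalization (log2 change 3.20, limma adjusted p = 0.0454). Voom gave a change of 7.88 for Dkk1, which has 0 reads in MSC replicate 3. In replicates 1 and 2 only, the shares differed by 4.44 points for Fzd1, Fzd2 and Fzd7, -0.21 for Fzd3 and Fzd6, -1.40 for Fzd4, Fzd9 and Fzd10 and -2.82 for Fzd5 and Fzd8, and the lowest mean of Fzd1, Fzd2 and Fzd7 was 3.08 times the highest other mean, against 3.94 times in all libraries. The interaction could not be fitted without replicate 3. Fzd9 rests on few reads, with 9 in TAC replicate 2.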
